A study of Mus musculus with 2 samples.

Results

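The 6 genes described here encode the subunits and the endogenous inhibitors of calcium/calmodulin-dependent protein kinase II (CaMKII). They were chosen by name from 19042 annotated genes with at least 1 read in long-read RNA sequencing of hippocampus. The subunit genes are Camk2a (ENSMUSG00000024617.16), Camk2b (ENSMUSG00000057897.14), Camk2d (ENSMUSG00000053819.16) and Camk2g (ENSMUSG00000021820.18), and the inhibitor genes are Camk2n1 (ENSMUSG00000046447.3) and Camk2n2 (ENSMUSG00000051146.2). The tissue came from female mice of strain B6CASTF1/J, a first-generation cross of C57BL/6J and CAST/EiJ mice, aged 14 days. The only group holds 2 libraries, replicates 1 and 2, each a pool of 3 animals and started from 2 µg of total RNA with ERCC and SIRV spike-in RNAs. The source label names the tissue as a layer of hippocampus, without saying which layer. There was no second condition, so levels and exon choices are described, and tests compare these libraries only, with reads as the unit.

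CaMKII is a large multimeric kinase that calmodulin activates when calcium enters a neuron, and that then keeps part of its activity by phosphorylating itself. Each subunit has a kinase domain, a regulatory segment that calmodulin binds, a linker that varies by splicing, and an association domain that joins subunits into the holoenzyme. The α and β subunits are the main neuronal ones and are central to synaptic plasticity in the hippocampus, the δ and γ subunits are found in most tissues, and the inhibitor proteins bind the active kinase. Linker splicing is known to set the spacing of kinase domains, the binding of the β subunit to F-actin, and whether δ and γ subunits carry a nuclear localisation signal.

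The linker exons on which the results turn are shown first. In all 4 subunit genes the variable exons lie between a constant exon of 43 nt and a constant exon of 49 nt. The sequences are from GENCODE M21 transcripts on mm10, written 5′ to 3′ on the strand of the gene, and every linker exon listed is coding in at least 1 annotated transcript. Camk2b lies on the minus strand of chromosome 11 and its linker exons are given in the order in which a transcript holds them. Capitals in the exon of 41 nt mark 3 bases that belong to it only when the upstream of 2 acceptor sites is used; without them the exon has 38 nt.
Camk2b 75-nt exon, chr11:5987057-5987131: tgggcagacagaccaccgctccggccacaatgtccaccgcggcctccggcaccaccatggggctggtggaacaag
Camk2b 41-nt exon, chr11:5982721-5982761: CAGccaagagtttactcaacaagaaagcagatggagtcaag
Camk2b 72-nt exon, chr11:5982501-5982572: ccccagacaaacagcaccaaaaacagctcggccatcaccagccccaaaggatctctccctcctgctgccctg
Camk2b 45-nt exon, chr11:5981070-5981114: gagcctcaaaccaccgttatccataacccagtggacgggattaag

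The Camk2d exons, on the plus strand of chromosome 3, are shown because the first of them has an acceptor pair of the same kind, with 38 or 35 nt, and because the next exons were combined in several ways. Capitals again mark the 3 bases of the longer form.
Camk2d 38-nt exon, chr3:126801724-126801761: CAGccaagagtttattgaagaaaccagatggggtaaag
Camk2d 60-nt exon, chr3:126805857-126805916: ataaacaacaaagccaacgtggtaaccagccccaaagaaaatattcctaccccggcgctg
Camk2d 42-nt exon, chr3:126808208-126808249: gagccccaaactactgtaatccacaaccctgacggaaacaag

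Camk2g, on the minus strand of chromosome 14, has variable exons of 63 and 69 nt, of which the 63-nt exon is 81.0% G and C.
Camk2g 63-nt exon, chr14:20757666-20757728: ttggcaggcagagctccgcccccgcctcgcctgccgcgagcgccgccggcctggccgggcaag
Camk2g 69-nt exon, chr14:20745792-20745860: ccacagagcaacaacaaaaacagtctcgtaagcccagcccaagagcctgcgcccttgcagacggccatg

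The 33-nt exon of Camk2d and Camk2g codes for the basic nuclear localisation signal and is shown because the genes used it very differently. The exons agree at 26 of 33 positions, or 78.8%, and capitals mark the 7 bases that differ.
Camk2d 33-nt exon, chr3:126802937-126802969: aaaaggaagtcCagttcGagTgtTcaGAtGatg
Camk2g 33-nt exon, chr14:20747819-20747851: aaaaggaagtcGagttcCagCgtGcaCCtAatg

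The reads behind these genes were few beside the libraries. Replicate 1 held 1168366 reads and replicate 2 held 888704, so that 1 read was worth 0.856 and 1.13 CPM (reads scaled to a library of 1000000), and a count of 0 allows up to 2.57 and 3.38 CPM (3 reads). Levels are CPM, and since 1 read stands for 1 cDNA, they are not divided by length. The excitatory neuron markers, fixed as Slc17a7, Nrgn, Neurod6, Neurod2 and Tbr1, were all read and summed to 3603 and 3530 CPM. The 5 choroid plexus markers stood apart: they summed to 4651 CPM in replicate 1 and 6.75 CPM in replicate 2, where Kcnj13, Clic6 and Folr1 had no read. Nearly all of that sum was Ttr, at 4558 CPM in replicate 1 and 5.63 CPM in replicate 2. In replicate 1 Kcnj13, Clic6 and Folr1 had 49, 22 and 20 reads. The 6 astrocyte markers summed to 2995 and 4766 CPM. By the test described next, all 5 choroid plexus markers were higher in replicate 1 and 5 of 6 astrocyte markers in replicate 2. Of the 5 excitatory neuron markers, Slc17a7 was higher in replicate 2 (log2 ratio 0.26) and Nrgn, the most read, in replicate 1 (-0.21), so that the near-equal sums cover members that went opposite ways. The other 3 did not pass, and with the length trend removed none of the 5 did. With totals scaled by TMM, also given next, Nrgn and Neurod6 were higher in replicate 1 and Slc17a7 did not pass.

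Camk2b was by far the most read of the 6 genes, and it was also the only one whose read split between the libraries passed the test. Replicate 1 held 761 of its reads and replicate 2 held 903, which is 651 and 1016 CPM, with a mean of 834 ± 258 CPM (SD, n = 2). Replicate 2 was the higher library, by 0.64 on the log2 scale with 1 CPM added to each level. A two-sided exact binomial test, which set the division of reads between libraries against that of the totals and was adjusted by Benjamini-Hochberg over all 11681 genes with at least 10 reads, gave an adjusted p of 4.15e-17. It was 1 of 6 members past the threshold of 0.05, against 10.8% of all genes tested, of which 5.03% were higher in replicate 1 and 5.81% in replicate 2. With reads as the unit, the test passes smaller ratios in genes with more reads, and the genes compared were not matched for read count. Camk2g, with 73 and 83 reads, had a log2 ratio of 0.57 and did not pass. With totals scaled by TMM, which moved the Camk2b log2 ratio by -0.13, 9.74% of genes passed, 6.78% higher in replicate 1 and 2.96% higher in replicate 2, and Camk2b stayed higher in replicate 2 by 0.51 (exact binomial test, adjusted p = 4.54e-11). With the trend of the library ratio over transcript length removed, the Camk2b difference was 0.31 and the exact binomial test gave an adjusted p of 0.000999. The part of the astrocyte and choroid plexus markers in this difference was not tested. In tissue RNA, fewer cells of a type and less RNA per cell cannot be told apart.

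Camk2a, whose protein is the most abundant kinase of forebrain synapses, was far below Camk2b by read count. It held 141 and 122 reads, or 121 and 137 CPM (129 ± 11.7, SD, n = 2), and the levels of the libraries lay close together. Camk2g held 73 and 83 reads, or 62.5 and 93.4 CPM (77.9 ± 21.9), and the exact binomial test gave an adjusted p of 0.106. Camk2d was the lowest of the 6 genes, with 39 and 31 reads, or 33.4 and 34.9 CPM (34.1 ± 1.06). Of the reads of the 4 subunit genes, 1014 in replicate 1 and 1139 in replicate 2, Camk2b took 75.05% (95% Clopper-Pearson interval 72.3 to 77.7) and 79.3% (76.8 to 81.6). Camk2a took 13.9% and 10.7%, Camk2g 7.20% and 7.29%, and Camk2d 3.85% and 2.72%. The order was the same in both libraries. Intervals given here cover counting error only.

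The inhibitor genes were read at similar levels. Camk2n1, whose product is a brain-rich inhibitor of the active kinase, held 74 reads in each library, or 63.3 and 83.3 CPM (73.3 ± 14.1). Camk2n2, its close relative, held 75 and 58 reads, or 64.2 and 65.3 CPM (64.7 ± 0.758). Neither differed between the libraries beyond the threshold (exact binomial test, adjusted p = 0.389 for Camk2n1 and 1 for Camk2n2). Together they summed to 149 and 132 reads, or 128 and 149 CPM, beside 868 and 1282 CPM for the 4 subunit genes. Levels of Camk2g, Camk2n1 and Camk2n2 overlapped across the libraries, so their order among each other is not set by these data.

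**Figure D1:**
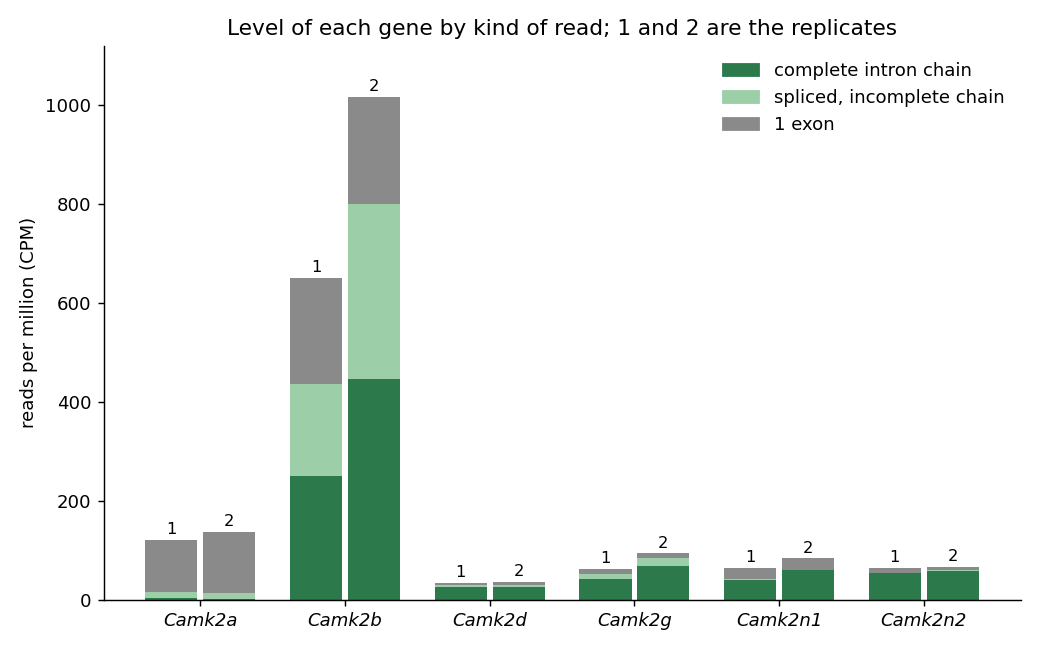
Level of each gene in CPM, with a bar for each replicate divided into reads with a complete intron chain, spliced reads with an incomplete chain, and reads on 1-exon models. Spliced reads from another first exon count as incomplete. Camk2b reached 651 and 1016 CPM and differed between replicates in its spliced reads, while the bars of Camk2a were nearly all 1-exon reads.

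Reads differed in how much of the transcript they covered. A read was counted as complete when it held the first donor and the last acceptor of the longest annotated coding transcript. It was partial when it was spliced but lacked at least 1 of these, and 1-exon when it held no intron. Partial reads therefore include reads from another first exon or into another last exon, as well as shortened ones. For Camk2a only 5 of 141 reads in replicate 1 and 1 of 122 in replicate 2 were complete. Its 1-exon reads numbered 123 and 110, or 87.2% (80.6 to 92.3) and 90.2% (83.4 to 94.8). Its level therefore rested on reads that hold no splicing, and its spliced reads alone came to 15.4 and 13.5 CPM, less than those of Camk2d.

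Camk2b split more evenly. Complete reads numbered 292 and 396, or 38.4% (34.9 to 41.9) and 43.9% (40.6 to 47.2), and partial reads 218 and 316. The partial reads include an unannotated chain of 21 exons from a further annotated first exon, with 5 and 19 reads. Its 1-exon reads numbered 251 and 191, or 33.0% (29.6 to 36.5) and 21.2% (18.5 to 24.0), and these intervals do not overlap. As levels, the 1-exon reads came to 215 CPM in each library, whereas the spliced reads came to 437 and 801 CPM. The difference between the libraries in Camk2b thus lay in its spliced reads.

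In the other genes most reads were complete by this definition. Camk2d had 30 and 23 complete reads, 76.9% and 74.2% of its reads, and Camk2g had 49 and 61, 67.1% and 73.5%. Camk2n1 and Camk2n2, each of 2 exons, were complete in 47 and 54 reads and in 63 and 52 reads. In these genes complete asks only for the donor and acceptor of a single intron, so their shares do not compare with those of the subunit genes. Their 1-exon shares were 32.4% and 27.0% for Camk2n1, against 16.0% and 8.62% for Camk2n2. Over 3411 annotated multi-exon coding genes that held 50 reads or more in both libraries, the median 1-exon share was 4.08% in replicate 1 and 3.23% in replicate 2. Of those genes, 27 (0.792%) had a higher mean share than Camk2a, 319 (9.35%) than Camk2b and 282 (8.27%) than Camk2n1. Camk2d had too few reads for that comparison.

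**Figure D2:**
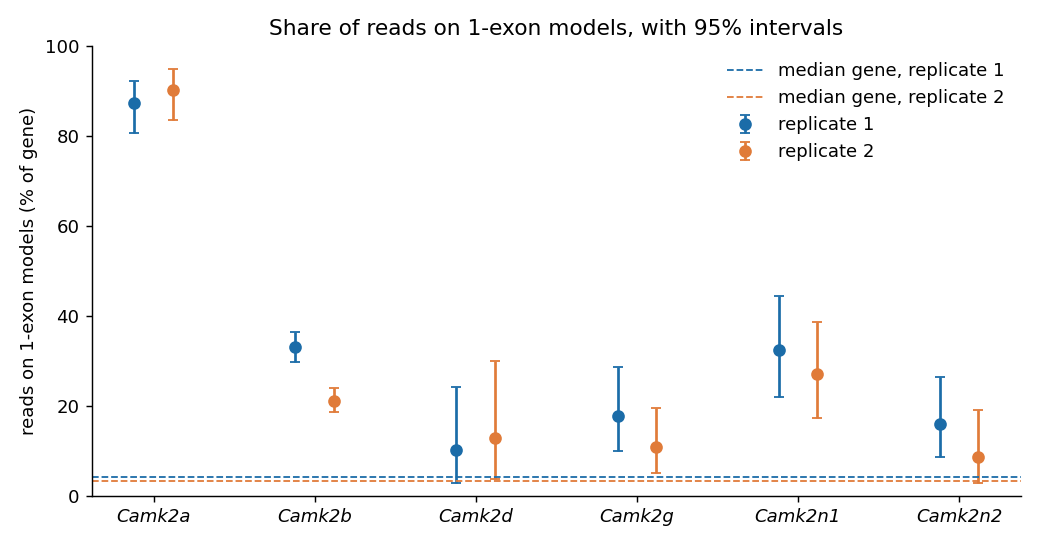
Percentage of the reads of each gene on 1-exon models, with exact 95% intervals, in each replicate; dashed lines are the medians over 3411 multi-exon coding genes. Camk2a stands near the top at 87.2% and 90.2%, and Camk2b shows intervals that do not overlap.

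Nearly all 1-exon reads lay on models of the last exon, though not all of these models reached its annotated end. Over both libraries the 6 genes had 26 such models with 766 reads, and 753 of these reads fell on models that overlap the last exon. For Camk2a that exon has 3376 nt, of which all but 1 are 3′ UTR, and for Camk2b it has 2183 nt, all 3′ UTR in the annotation. The Camk2b model was the same in both libraries: chr11:5969668-5971568, with 248 reads in replicate 1 and 188 in replicate 2, starting 258 nt into the last exon and ending 24 nt before the annotated end. The most-read Camk2n1 model ended 1981 nt before the annotated end, and the Camk2d models of the last exon ended 1415 nt before it. In Camk2a the libraries were divided differently. Replicate 1 had a model at chr18:60986407-60988152 with 68 reads and one at chr18:60984863-60986407 with 50 reads, and replicate 2 had a single model over chr18:60984863-60988152 with 108 reads.

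The edges of these models are not the edges of reads. In 10 of the 26 models, which hold 695 of the 766 reads, both ends sat on an exon edge of an annotated transcript of the gene. A Camk2g model of 9 nt in replicate 2 held 8 reads and a Camk2n1 model of 22 nt held 7, so the length of a model is not the length of its reads. The Camk2a models meet at base 60986407, which is itself the annotated end of Camk2a-201, so a count by model cannot say how many Camk2a reads used the nearer end. Camk2n1 had its most-read 1-exon model at chr4:138456828-138458142 with 22 reads in replicate 1, wholly inside the 3′ UTR. Camk2d and Camk2g had 7 and 21 last-exon 1-exon reads over both libraries, and Camk2n2 had 17.

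Spliced reads that held both the 43-nt and the 49-nt constant exon show which linker exons one molecule combined. Such reads numbered 461 and 630 for Camk2b, 60.6% and 69.8% of its reads. They numbered 34 and 26 for Camk2d, 53 and 69 for Camk2g, and only 9 and 4 for Camk2a. Of the Camk2a reads, 8 and 4 held the 41-nt exon alone and 1 held it with the 33-nt exon that codes for a nuclear localisation signal. That depth does not allow a share for Camk2a.

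Camk2b was read mostly with its full linker. The combination of the 75-, 38-, 72- and 45-nt exons was held by 405 of 461 reads in replicate 1 and 507 of 630 in replicate 2, or 87.9% (84.5 to 90.7) and 80.5% (77.2 to 83.5). The form without the 45-nt exon followed, with 31 and 68 reads, or 6.72% (4.61 to 9.41) and 10.8% (8.48 to 13.5). No transcript of the annotation has this combination, although all of its exons are annotated and it was read in both libraries. The form 41 + 72 + 45, which lacks the 75-nt exon and takes the longer acceptor, is 72 nt shorter than the full linker and had 5 and 29 reads, or 1.08% (0.353 to 2.51) and 4.60% (3.10 to 6.54). The form 41 + 72 had 7 and 12 reads, or 1.52% and 1.90%. Replicate 1 held more of the full linker, and for it and for 41 + 72 + 45 the counting intervals of the libraries do not overlap. Combinations as such were not tested between the libraries.

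These 4 combinations covered 1064 of 1091 Camk2b reads, and 12 further ones shared 27 reads. Of all 16 combinations, 8 were read in both libraries, and 3 that the annotation has covered 965 reads. An exon of unannotated length stood in 14 reads. The reading frame of the full linker was kept in 1083 reads and changed in 8. The 72-nt exon was in nearly every read, at 98.7% and 99.0%, the 75-nt exon in 96.5% and 93.2%, and the 45-nt exon in 91.8% (88.9 to 94.1) and 87.0% (84.1 to 89.5). Among reads without the 75-nt exon, 9 of 16 and 31 of 43 held the 45-nt exon, or 56.3% (29.9 to 80.2) and 72.1% (56.3 to 84.7). With the 75-nt exon, 414 of 445 and 517 of 587 held it, or 93.0% (90.3 to 95.2) and 88.1% (85.2 to 90.6). The intervals do not overlap in either library, and the difference was not tested.

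**Figure D3:**
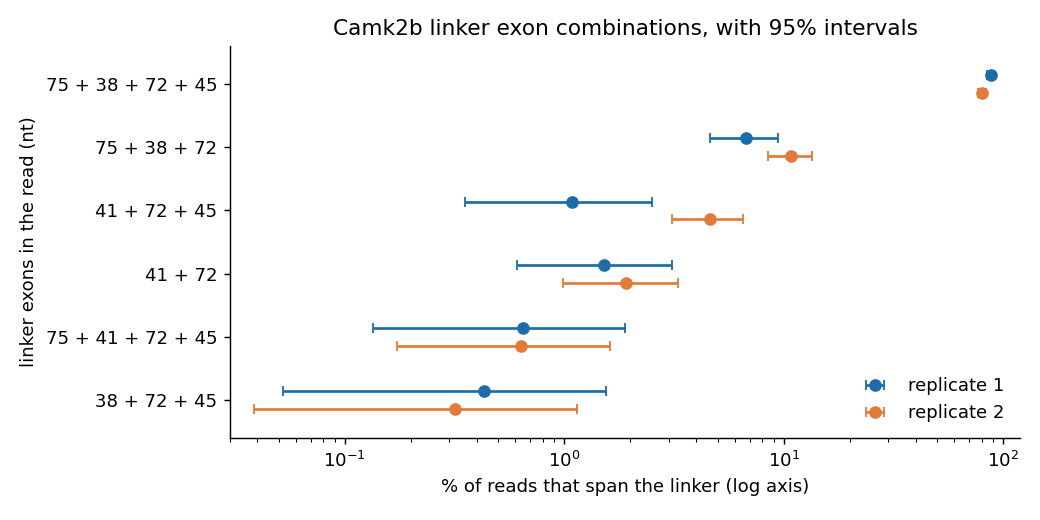
Share of Camk2b reads that span the linker, on a log axis, for the 6 combinations with the most reads, with exact 95% intervals for each replicate. The full linker of 75 + 38 + 72 + 45 nt held 87.9% and 80.5%, and the form without the 45-nt exon came next in both replicates.

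The acceptor pair of the Camk2b 41- or 38-nt exon was used according to the exon joined to it. When the 75-nt exon came before it, the 3 extra bases were present in 3 of 444 reads in replicate 1 and 6 of 584 in replicate 2, or 0.676% (0.140 to 1.96) and 1.03% (0.378 to 2.22). When the 43-nt constant exon was joined to it directly, they were present in 12 of 14 and 41 of 43 reads, or 85.7% (57.2 to 98.2) and 95.3% (84.2 to 99.4). The ranges are far apart in both libraries. In Camk2d, which has no exon between the 43-nt exon and its own acceptor pair, the longer form was in 29 of 34 and 24 of 26 reads, or 85.3% (68.9 to 95.05) and 92.3% (74.9 to 99.1). The shorter Camk2d form rested on models of 1 read each. With models of at least 2 reads it was in 0 of 25 and 0 of 23 reads. The sequence of the Camk2b exon is printed above with those bases in capitals, and the 38-nt exon of Camk2d opens with the same 3.

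**Figure D4:**
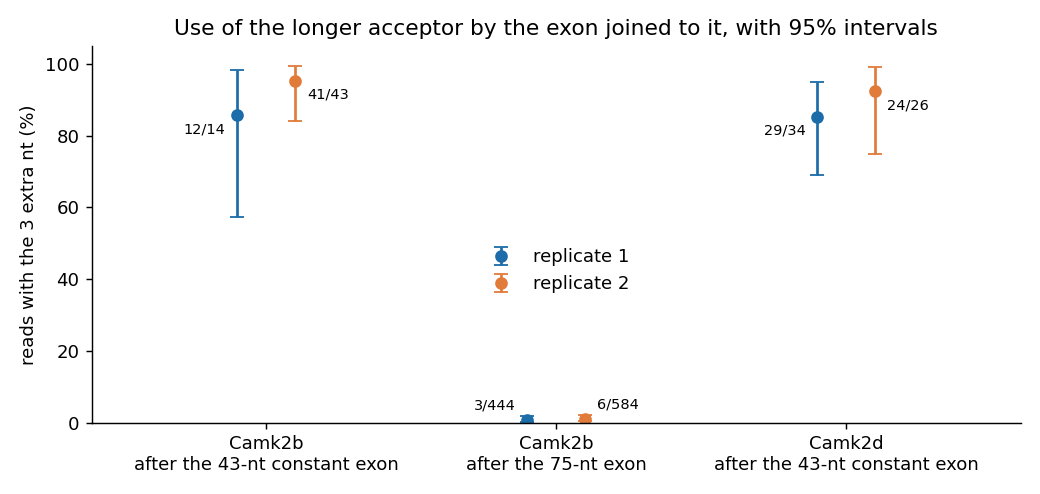
Percentage of reads that hold the 3 extra bases of the longer acceptor, with exact 95% intervals and read counts, by gene and by the exon joined to the acceptor. Camk2b lies at 85.7% and 95.3% after the 43-nt constant exon and at 0.676% and 1.03% after the 75-nt exon, and Camk2d lies at 85.3% and 92.3%.

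Camk2d was read in 9 linker forms, of which 3 held most reads. The form 38 + 60 + 42, known as δA, led with 16 of 34 and 11 of 26 reads, or 47.1% (29.8 to 64.9) and 42.3% (23.4 to 63.1). The form with the 38-nt exon alone, known as δC, had 8 reads in each library, or 23.5% (10.7 to 41.2) and 30.8% (14.3 to 51.8). The form 38 + 60 had 5 reads in each, a combination that the annotation does not have. The other 6 combinations shared 7 reads. The 60-nt exon was in 24 and 17 reads and the 42-nt exon in 18 and 13, and the 42-nt exon rarely came without the 60-nt exon. With the 60-nt exon it was in 18 of 24 and 12 of 17 reads, and without it in 0 of 10 and 1 of 9.

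The nuclear localisation exon was rare in Camk2d and common in Camk2g when reads of all models were counted. The 33-nt exon was in 2 of 34 Camk2d reads in replicate 1 and 0 of 26 in replicate 2, or 2 of 60 in all, 3.33% (0.406 to 11.5). Both of those reads used the 35-nt form of the exon before it, and each was the only read of its model. In Camk2g it was in 44 of 53 and 48 of 69 reads, or 83.0% (70.2 to 91.9) and 69.6% (57.3 to 80.1), and in 92 of 122 in all, 75.4% (66.8 to 82.8). The intervals of the genes do not overlap, although the exons differ at only 7 of 33 bases. With annotated transcripts only, which kept 5 and 15 Camk2g linker reads, the exon was in 1 and 3 of them, 20.0% in each library (0.505 to 71.6 and 4.33 to 48.1), and these intervals overlap those of Camk2d (0 to 16.1 and 0 to 19.5). The Camk2a counterpart was in 1 of 13 reads.

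Camk2g was also read in a mixture of linker forms. The form 63 + 44 + 33 + 45 led with 28 of 53 and 23 of 69 reads, or 52.8% (38.6 to 66.7) and 33.3% (22.4 to 45.7). Adding the 69-nt exon gave 7 and 12 reads, 13.2% and 17.4%. The form 44 + 69 + 45 had 6 and 10 reads, 44 + 33 + 45 had 6 and 8, 44 + 45 had 2 and 7, and 44 + 33 + 69 + 45 had 3 and 5. These 6 forms covered 117 of 122 reads, all 6 were read in both libraries, and 87 of the 122 reads held a combination that the annotation has. The 45-nt exon was in all 122 reads and the 44-nt exon in all but 1, so the choice lay in the 63-, 33- and 69-nt exons.

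Of the variable Camk2g exons, the 63-nt and the 33-nt exon were often in the same read. The 63-nt exon was in 35 of 53 and 39 of 69 reads, or 66.0% (51.7 to 78.5) and 56.5% (44.0 to 68.4). Where it was present, the 33-nt exon followed in 35 of 35 and 35 of 39 reads, and where it was absent, in 9 of 18 and 13 of 30. The 69-nt exon went the other way, with 7 of 35 and 14 of 39 reads beside the 63-nt exon and 9 of 18 and 15 of 30 without it. If the 63- and 33-nt exons were chosen independently, their shares would give 54.8% and 39.3% of reads with both, against 66.0% and 50.7% read. This was not tested.

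**Figure D5:**
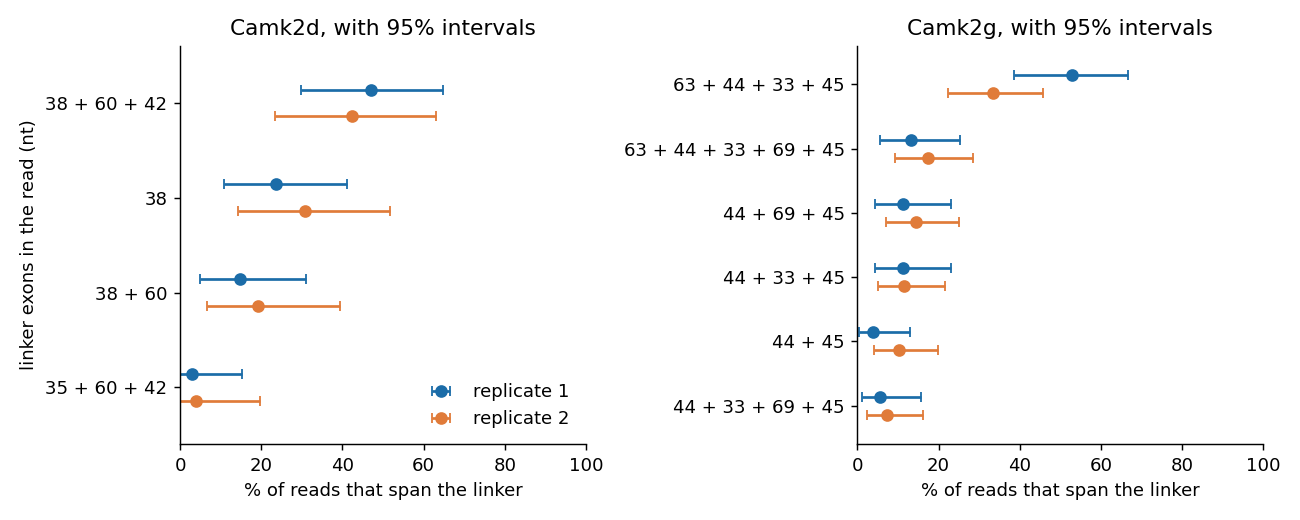
Share of reads that span the linker for the leading combinations of Camk2d (left) and Camk2g (right), with exact 95% intervals for each replicate. The leading form held 47.1% and 42.3% in Camk2d and 52.8% and 33.3% in Camk2g, and the intervals of the replicates overlap for every form drawn.

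Between the libraries, no annotated cassette exon of these genes that had enough reads passed the test. Inclusion of annotated cassette exons was compared with Fisher's exact test over all 4499 events with at least 20 reads in each library, of which 1 (0.0222%) passed. Of the 16 events in these genes, 1 had an unadjusted p under 0.05. Several stood at 0 or 100% in both libraries and could not pass. None lay in Camk2a, and the 60- and 42-nt linker exons of Camk2d had too few reads. The acceptor pairs and the pair of 73-nt exons of Camk2d are not cassette events and were not tested. The smallest unadjusted p among member linker exons was that of the Camk2b 45-nt exon joined between the 72-nt and the 49-nt exon, with 91.3% and 87.0% (Fisher's exact test p = 0.0237, adjusted p = 1). The 33-nt exon of Camk2g joined between the 44- and 45-nt exons was in 94.4% of reads in replicate 1 and 79.5% in replicate 2 (Fisher's exact test p = 0.0885, adjusted p = 1). At these depths a difference of that size in Camk2g was not detectable after adjustment.

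Outside the linker, the variable exons of Camk2b were almost never read, while Camk2g and Camk2d each had a mixed exon. Camk2b can hold further exons of 114, 129 and 129 nt after the 49-nt exon. They were in 0, 0 and 2 of 488 reads in replicate 1 and 1, 0 and 2 of 691 in replicate 2. The annotated 33-nt exon upstream of the Camk2b linker was in 0 of 318 and 0 of 460 reads, which allows up to 0.943% and 0.652%. In Camk2g the 114-nt exon downstream of the linker was in 20 of 56 and 18 of 70 reads, or 35.7% (23.4 to 49.6) and 25.7% (16.0 to 37.6). It was found with and without the 63-nt exon: in 11 of 35 and 10 of 37 reads with it, and in 8 of 18 and 7 of 30 without it.

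Camk2d has a pair of alternative 73-nt exons in the kinase domain, of which each read held only 1. The exons agree at 68.5% of positions, and capitals mark the 23 bases that differ. Reads took the upstream exon in 30 of 32 and 24 of 25 cases, 93.8% (79.2 to 99.2) and 96.0% (79.6 to 99.9), and the downstream exon in 2 and 1.
Camk2d upstream 73-nt exon, chr3:126770785-126770857: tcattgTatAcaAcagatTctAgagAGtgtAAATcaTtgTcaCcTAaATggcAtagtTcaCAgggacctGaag
Camk2d downstream 73-nt exon, chr3:126771774-126771846: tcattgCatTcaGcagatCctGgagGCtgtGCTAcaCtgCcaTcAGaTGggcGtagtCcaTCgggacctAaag
An 89-nt exon near the end of Camk2d, which carries a stop codon in 3 annotated transcripts, was in 12 of 34 and 7 of 24 reads, 35.3% (19.7 to 53.5) and 29.2% (12.6 to 51.1).

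Whole transcripts followed the exon choices. The leading spliced model of Camk2b was the annotated Camk2b-209, with 21 exons and the full linker, at 245 and 279 reads. The next was an incomplete chain of 11 exons with the same linker, at 86 and 101 reads, and the third an unannotated 20-exon chain without the 45-nt exon, at 15 and 40 reads. Camk2b held 134 distinct intron chains in 1222 spliced reads, of which 40 were read in both libraries, 83 rested on 1 read and 3 were annotated transcripts. For Camk2d the leading models were the annotated Camk2d-206 (10 and 7 reads), Camk2d-204 (5 and 3) and Camk2d-226 (2 and 5). For Camk2g the leading 3 were all unannotated joins of annotated splice sites, with 16 and 13, 8 and 5, and 4 and 7 reads, and annotated transcripts held only 5 of 73 and 15 of 83 Camk2g reads.

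For Camk2a the leading spliced models had 7, 4 and 2 reads over both libraries, the second being the annotated Camk2a-203. The inhibitors each had 1 dominant transcript: Camk2n1-201 had 45 and 52 reads and Camk2n2-201 had 63 and 51. No member differed between the libraries in the share of its leading transcript, a comparison in which 70 of 6607 genes (1.06%) passed (Fisher's exact test, Benjamini-Hochberg adjustment), and 0 of 6 members were under 0.05 before adjustment. With spliced models only, 0.294% of genes passed. There Camk2b-209 had 48.0% of Camk2b reads in replicate 1 and 39.2% in replicate 2 and did not pass (Fisher's exact test, p = 0.0023, adjusted p = 0.258).

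The genes around CaMKII in its pathway were listed from general knowledge, and 43 of 45 could be tested. Of these, 5 were higher in replicate 1 and 11 in replicate 2, or 16 in all by the same exact binomial test, against 10.8% of all genes tested. The split turned with the scaling: with TMM-scaled totals it was 6 and 5. The list was not matched for read count to all genes tested, and the test passes smaller ratios in genes with more reads. Camkv passed at a log2 ratio of 0.22 with 864 and 763 reads. Camkk1 did not pass at 0.36 with 158 and 154 reads. The count of list genes called is therefore not read as a trait of the pathway. With the length trend removed 3 were called, Gap43 and Ppp3ca among them, where 2.69% of all genes passed, and no other gene named below was called. The median log2 ratio over all genes tested was 0.11, the value beside which the list medians stand.

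Genes of calmodulin, the activator, were read at higher levels than Camk2b. Calm2 reached 3127 ± 594 CPM (SD, n = 2 here and below) and Calm3 1961 ± 260 CPM. Calm2 was higher in replicate 1 (log2 ratio -0.39) and Calm3 in replicate 2 (0.27). The 3 proteins that buffer calmodulin through an IQ motif all passed, higher in replicate 1: Nrgn (1999 ± 207 CPM, log2 ratio -0.21), Gap43 (385 ± 96.4 CPM, -0.51) and Pcp4 (272 ± 62.6 CPM, -0.47), with a list median of -0.47. With the length trend removed, 1 of the 3 was called.

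Among 8 tested calmodulin-dependent kinases outside the family, 2 were higher in replicate 2 and the list median was 0.29. Camkk2, which phosphorylates CaMKI and CaMKIV, had 65.0 and 122 CPM. Camkv, a kinase-like protein of synapses without catalytic activity, had 739 and 859 CPM and did not pass with TMM scaling. Camkv (799 ± 84.2 CPM) was thus read at about the level of Camk2b. Camkk1 had 154 ± 26.9 CPM and did not pass. Of 10 tested phosphatase genes 3 were higher in replicate 2, with a list median of 0.25: Ppp3ca (1638 ± 405 CPM, log2 ratio 0.51) and Ppp3r1 (486 ± 106 CPM, 0.45), a catalytic and the regulatory subunit of calcineurin, and Ppp1cb (264 ± 72.7 CPM, 0.57), a catalytic subunit of protein phosphatase 1. With the length trend removed, Ppp3ca was still called, and Ppp3r1 and Ppp1cb were not (exact binomial test, adjusted p = 0.339 and 0.338). Ppp3cb, another catalytic subunit of calcineurin (151 ± 14.5 CPM, log2 ratio 0.20), and Ppp2ca (850 ± 72.1 CPM) did not pass.

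Of 19 tested substrates and synaptic partners, 5 were higher in replicate 2 and 1 in replicate 1, with a list median of 0.30. The 5 were Syn2 (650 ± 109 CPM, log2 ratio 0.34) and Syn1 (502 ± 74.5 CPM, 0.30), the vesicle proteins that CaMKII phosphorylates, the NMDA receptor subunit gene Grin1 (419 ± 81.2 CPM, 0.40), the AMPA receptor subunit gene Gria1 (285 ± 57.5 CPM, 0.41) and the scaffold gene Dlgap1 (173 ± 42.9 CPM, 0.51). None of the 5 passed with TMM scaling. Grin2b, whose protein docks the active kinase at the synapse, was the gene higher in replicate 1, at 84.7 against 47.3 CPM (log2 ratio -0.83), and passed with TMM scaling too. With the length trend removed, Grin2b did not pass (log2 ratio -0.42, exact binomial test, adjusted p = 0.597).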

How the data were processed

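Total RNA of hippocampus was read by long-read sequencing in 2 libraries. The deposited tables hold a raw, unscaled count of reads for each transcript model, which the authors obtained by assigning reads to GENCODE M21 transcripts and to models made with TALON, on mm10, per the file headers. For the aligner and the filters on reads, the sources used here say nothing.

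A gene's reads were summed over all models with its identifier, and exon chains were read from the deposited annotation. Levels are CPM over all reads of a library, spike-ins included. Linker reads are those of models that use the donor of the 43-nt constant exon and the acceptor of the 49-nt constant exon. This window was chosen after the annotation was read, since the planned rule (the successive constant sites with the most exons between them) gave windows of different kinds in the 4 genes. The members, lists and tests were chosen with earlier results of these data known.

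The division of reads between libraries was tested by a two-sided exact binomial test, exon inclusion and leading transcript shares with Fisher's exact test (at least 20 reads in each library), each over the whole table with Benjamini-Hochberg adjustment. Both kinds of test were tested on simulated data. edgeR 4.0.16 gave TMM-scaled totals and DESeq2 1.42.0 size factors, in R 4.3.3. Python 3.11.15, scipy 1.17.1, numpy 2.4.6, pandas 2.3.3 and matplotlib 3.10.9 were used. With 2 libraries of 1 group, a test between them treats reads as the unit. Named were all members, per member the 3 spliced models and 2 1-exon models with the most reads and all linker exons, and per pathway list the 3 genes with the highest mean CPM and up to 6 that passed; 1 gene that this rule names is not reported here. Reads of the CAST/EiJ allele were placed on the C57BL/6J reference and the alleles were not separated. PCR copies are not marked by molecular identifiers. The labels call the libraries biological replicates: the characteristics number different animals for each, while a description line repeats the animals of replicate 1 for both.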

Additional observations from a re-analysis of the deposited data

Results flagged for a closer look

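Reads on the strand opposite to these genes are outside the comparisons, and a count above 3 reads is given here. Over Camk2a there were 36 such reads in replicate 1 and 24 in replicate 2. Of these, 29 and 19 lay on 1-exon models whose 5′ edge is base 60984326, upstream of the last exon of Camk2a. A spliced Camk2a model with an incomplete chain starts at the same base. Model edges need not be read edges, so whether reads of both strands start there cannot be told. Over Camk2b there were 70 in each replicate, and the leading model in each, with 42 and 35 reads, lay inside the gene. Over Camk2d there were 11 in replicate 1 against 1 in replicate 2. Over Camk2g there were 5 in each replicate, and over Camk2n1 there were 9 and 5. None of these reads was counted for the kinase genes. Their origin was not tested.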

How the results depend on the processing

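No paired analysis was possible because the series holds 1 group. Camk2b was the only member past the threshold under all 5 alternatives of scaling, filter, reads counted and length (log2 ratio 0.31 to 0.64). With annotated transcripts only, Camk2a had too few reads to be tested. Mean levels depended on the reads counted. With annotated transcripts only, they were 2.27 CPM for Camk2a, 270.7 for Camk2b, 18.6 for Camk2d, 10.6 for Camk2g, 48.5 for Camk2n1 and 55.7 for Camk2n2, and with spliced models only 14.5 for Camk2a, 30.2 for Camk2d, 51.8 for Camk2n1 and 56.8 for Camk2n2. Without spike-ins in the total, Camk2n2 was at 65.7 CPM. With the length trend removed, 314 genes differed in place of 1266. With TMM or DESeq2 scaling, 1 gene of the other kinases and 1 of the substrate list was called.

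With annotated transcripts only, the leading linker form held 97.1% in Camk2b, 59.8% in Camk2d and 0% in Camk2g, as the annotation lacks most Camk2g chains. Mean inclusion in Camk2g then went from 76.3 to 20.0% for the 33-nt exon, from 61.3 to 0% for the 63-nt exon and from 36.1 to 63.3% for the 69-nt exon. The leading form held 51.9% in Camk2d with models of at least 2 reads, and mean inclusion of its 38-nt exon went from 88.8 to 100%. That minimum gave 3 cassette exons passing in place of 1 over the whole table, and a 1-exon share of 93.6% in Camk2a. With spliced models only, 17 genes passed for the leading transcript in place of 70.

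Leaving out either replicate leaves the value of the other. Levels then ranged from 121 to 137 CPM for Camk2a, 651 to 1016 for Camk2b, 33.4 to 34.9 for Camk2d, 62.5 to 93.4 for Camk2g, 63.3 to 83.3 for Camk2n1 and 64.2 to 65.3 for Camk2n2. The leading linker form ranged from 80.5 to 87.9% in Camk2b, 42.3 to 47.1% in Camk2d and 33.3 to 52.8% in Camk2g. The 1-exon share ranged from 87.2 to 90.2% in Camk2a, 21.2 to 33.0% in Camk2b, 10.3 to 12.9% in Camk2d, 10.8 to 17.8% in Camk2g, 27.0 to 32.4% in Camk2n1 and 8.62 to 16.0% in Camk2n2. The narrower windows of the planned rule, added after the data were seen, gave 70.6% and 65.4% for the Camk2d 60-nt exon, the same as in the wider window, and 32.1% and 42.0% for the Camk2g 69-nt exon. Depth limits the linker of Camk2a most, with 13 reads over both libraries.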

Other observations

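Most subunit reads that reached the second exon came from the first exon of the longest annotated coding transcript, in 300 of 310 and 412 of 438 Camk2b reads. A further annotated first exon of Camk2b, whose donor is at base 6066256, was joined there in 8 of 310 reads in replicate 1 (2.58%) and 22 of 438 in replicate 2 (5.02%). All such reads of Camk2a (6 in each library) and Camk2d (31 and 25) used the main donor.

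In Camk2d, the 89-nt exon near the 3′ end was seen beside each of the leading linker forms. It was in 3 of 8 and 5 of 8 reads with the 38-nt exon alone, in 4 of 15 and 2 of 9 reads with 38 + 60 + 42, and in 3 of 5 and 0 of 4 reads with 38 + 60. The 45-nt exons that Camk2b and Camk2g hold last in the linker agree at 71.1% of positions, and their use was 89.4% ± 3.37 in Camk2b (SD, n = 2) and 100% in Camk2g in both libraries.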
